A study of Mus musculus with 8 samples.

Results

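The basement membrane genes of fibro/adipogenic progenitors (FAPs) are described here, a set of 10 genes chosen by mouse symbol and found by Ensembl identifier among the 37991 genes of the files. They encode both common chains of collagen IV (Col4a1, Col4a2), collagens XV and XVIII (Col15a1, Col18a1), laminin chains (Lama2, Lama4, Lamb1, Lamc1), nidogen 1 (Nid1) and perlecan (Hspg2). FAPs are mesenchymal progenitors of skeletal muscle that can become fibroblasts or fat cells. The libraries came from FAPs purified from the tibialis anterior of mice of mixed background, 3 days after injury with glycerol. The FAP-ctrl group (n = 5) came from wild type muscle, and in the FAP-no cilia group (n = 3) a floxed allele of Ift88, an intraflagellar transport gene, had been deleted conditionally so that the cells lacked a primary cilium. The sources used here do not give the Cre driver, the age of the mice or the number of animals behind each library, so p-values measure the spread between these libraries.

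A basement membrane is a thin sheet of matrix that surrounds muscle fibres, capillaries, nerves and fat cells. Laminin trimers of an alpha, a beta and a gamma chain polymerise at the cell surface, collagen IV forms a covalently linked network, and nidogen and perlecan join them. In muscle the laminin alpha 2 chain anchors the fibre through dystroglycan and integrin receptors, and interstitial fibroblasts and FAPs contribute several of the components.

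Read totals were 25.2 to 43.9 M gene reads in FAP-ctrl and 15.3 to 29.5 M in FAP-no cilia, and all values below are normalized read counts, that is, reads divided by the size factor of the library. Ift88 stood at 477, 457, 540, 566 and 594 in FAP-ctrl 1 to 5 and at 211, 195 and 322 in FAP-no cilia 1 to 3. The groups did not overlap for Ift88, and its log2 difference was -1.14 ± 0.17 (SE; limma-trend adjusted p = 0.0895, DESeq2 adjusted p = 6.73e-06). Pdgfra, the surface receptor that marks FAPs, stood between 33773 and 51005 in all 8 libraries, while the endothelial gene Cdh5 stood between 16.5 and 317 and the pericyte gene Rgs5 between 25.2 and 838. The highest value of Cdh5 and of Rgs5 was that of FAP-no cilia 3. By Xist and 4 Y-linked genes, FAP-ctrl 1 and 2 and all 3 FAP-no cilia libraries were male and FAP-ctrl 3, 4 and 5 female, so sex is partly tied to genotype.

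All 10 genes were well expressed, and together they took 0.614% to 0.821% of the gene reads of a FAP-ctrl library and 0.662% to 0.697% of a FAP-no cilia library. Per kilobase of exon, Nid1 had the highest level at 6833 ± 500 (SD, n = 8), rank 121 of 13257 protein-coding genes tested. Col4a1 followed at 3197 ± 826 and Lamc1 at 2991 ± 281 per kilobase, a pair whose spreads overlapped. Lamb1 stood at 2078 ± 130, Lama4 at 1845 ± 146, Col4a2 at 1712 ± 425 and Col15a1 at 1325 ± 268 per kilobase, each overlapping its neighbour in this order within 1 SD. Hspg2 stood at 980 ± 225, also within the spread of Col15a1, and Lama2 at 641 ± 102 per kilobase. Col18a1 was lowest at 387 ± 117 per kilobase, rank 2904, although in FAP-ctrl 5 it lay above Lama2. The exon length counts every annotated exon, and with the longest coding transcript instead Nid1 stayed first (7789 per kilobase) and Col18a1 last (486 per kilobase), while Lama4 (3683 per kilobase) moved to the second place and Lama2 (1089 per kilobase) above Hspg2 (988 per kilobase).

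**Figure D1:**
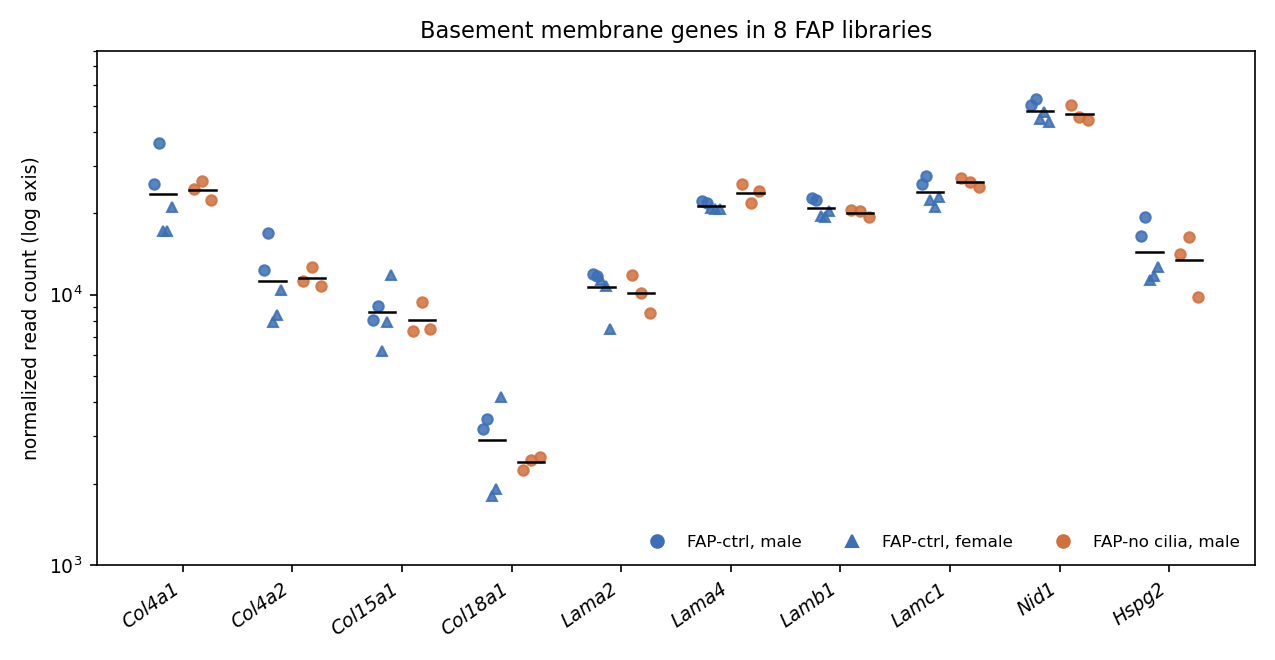
Normalized read count of each of the 10 genes (log axis, not divided by gene length) in each library, with colours for the groups, circles for male and triangles for female libraries and bars for the group means. The groups overlap for every gene, and Nid1 has the highest and Col18a1 the lowest counts.

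Col4a1 and Col4a2, which encode the chains that combine into the widespread collagen IV trimer, kept nearly the same ratio in every library although their levels varied. Col4a1 (ENSMUSG00000031502) stood at 25743, 36424, 17248, 17147 and 21173 in FAP-ctrl 1 to 5 and at 24547, 26285 and 22342 in FAP-no cilia 1 to 3. Col4a2 (ENSMUSG00000031503) stood at 12382, 16921, 7936, 8388 and 10376 in FAP-ctrl, against 11234, 12630 and 10765 in FAP-no cilia. FAP-ctrl 2 was the highest library for both genes, and FAP-ctrl 3 and 4 were the lowest. All 3 FAP-no cilia values lay inside the FAP-ctrl range. The log2 difference, FAP-no cilia minus FAP-ctrl, was 0.11 ± 0.23 (SE, 95% interval -0.40 to 0.62) for Col4a1 and 0.10 ± 0.22 (SE, 95% interval -0.39 to 0.58) for Col4a2, with limma-trend adjusted p = 0.901 and 0.909.

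The ratio of Col4a1 to Col4a2 reads was 2.08, 2.15, 2.17, 2.04 and 2.04 in FAP-ctrl, against 2.19, 2.08 and 2.08 in FAP-no cilia. Its log2 value differed by 0.01 between the groups (exact two-sided permutation test over 56 splits, p = 0.661, adjusted over 4 ratios p = 0.661). The smallest p this design allows is 0.0179. Per kilobase of exon the ratio lay between 1.81 and 1.94, and with transcript lengths between 1.99 and 2.13. The SD of the log2 ratio over the 8 libraries was 0.0394, against an SD of 0.354 for log2 Col4a1 and 0.346 for log2 Col4a2 alone. Among 10222 protein-coding genes with a mean of at least 100, Col4a2 was the gene whose ratio to Col4a1 varied least. The next in that order were Wdr24 (SD 0.14), Ppp2r5b (0.15), Creld1 (0.15) and Tjap1 (0.15).

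The genes lie head to head on chromosome 8 of GRCm38, Col4a1 on the minus strand (11198423 to 11312826) and Col4a2 on the plus strand (11312805 to 11449287), and their first exons share 22 bases. The start windows of both genes, 250 bases before to 50 after the start as given by RefSeq for GRCm38.p6, are shown because they are the stretch from which this pair is transcribed in opposite directions. The Col4a1 window is chr8:11312777-11313076 on the minus strand and the Col4a2 window chr8:11312555-11312854 on the plus strand. Capitals mark the 78 bases that the windows share, each read on the strand of its own gene.
Col4a1: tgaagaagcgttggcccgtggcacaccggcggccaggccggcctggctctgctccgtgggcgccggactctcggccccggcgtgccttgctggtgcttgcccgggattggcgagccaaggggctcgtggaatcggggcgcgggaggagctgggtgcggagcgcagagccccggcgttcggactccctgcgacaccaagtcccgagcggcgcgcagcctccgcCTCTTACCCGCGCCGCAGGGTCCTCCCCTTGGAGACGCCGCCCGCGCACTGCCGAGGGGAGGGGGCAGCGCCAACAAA
Col4a2: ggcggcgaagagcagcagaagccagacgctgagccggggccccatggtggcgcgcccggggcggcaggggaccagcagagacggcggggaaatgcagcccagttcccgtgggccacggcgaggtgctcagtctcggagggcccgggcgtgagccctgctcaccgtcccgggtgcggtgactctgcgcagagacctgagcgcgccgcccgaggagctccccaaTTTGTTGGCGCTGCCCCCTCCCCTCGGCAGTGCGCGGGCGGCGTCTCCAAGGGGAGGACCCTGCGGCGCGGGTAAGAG
The Col4a1 window had a GC content of 74.0% and the Col4a2 window 73.7%. A GC box (GGGCGG, on either strand) occurred 1 time in the Col4a1 window and 3 times in the Col4a2 window, and 1 lay in the shared bases. The letters CCAAT, on either strand, occurred 1 time in each window, and TATAAA occurred in neither. None of these motifs contains another. Of 32817 such windows of all genes, 35.6% held a GC box, 37.4% CCAAT and 13.6% TATAAA.

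Other genes that start head to head did not keep their ratio as closely. Of 421 pairs of protein-coding genes with a mean of at least 100 whose start windows overlap on opposite strands, Col4a1 and Col4a2 had the lowest SD of the log2 ratio over the 8 libraries, where the median pair had 0.189. Read sampling alone widens this SD for genes with a mean near 100. Col4a1 and Col4a2 had means of 23864 and 11329, and the part of read level in this order was not tested. Reads on the 22 shared bases cannot be assigned without the strand setting of the counting, and the sources used here do not give it.

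**Figure D2:**
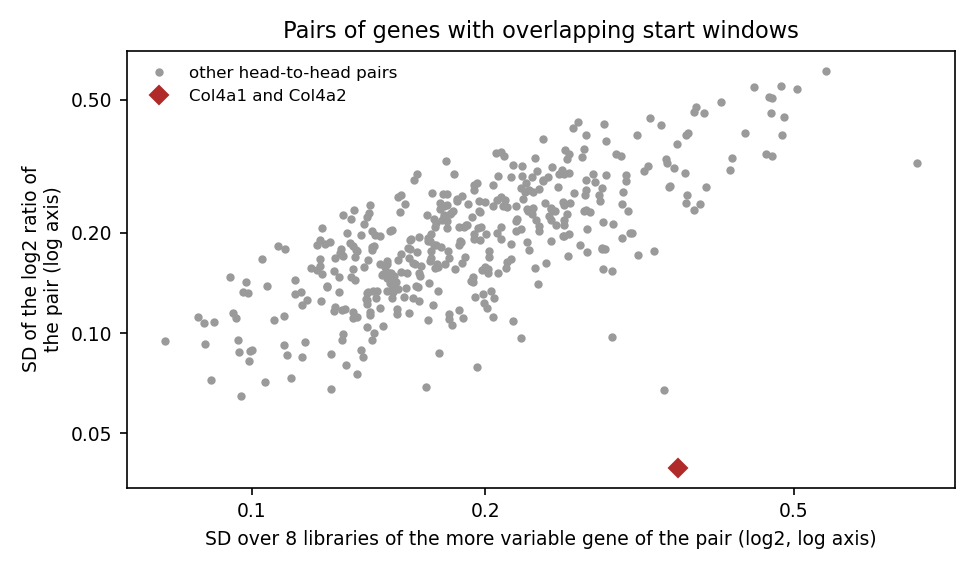
Each point is a pair of genes with overlapping start windows on opposite strands; the x axis gives the SD over 8 libraries of the log2 value of the more variable gene and the y axis the SD of the log2 ratio of the pair (both log axes). Col4a1 and Col4a2 lie at 0.354 and 0.0394, below all other pairs.

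Col15a1 and Col18a1, which encode the collagens with endostatin-like ends that lie at the outer face of the basement membrane and in vessel walls, were the genes in which FAP-ctrl 5 was highest. Col15a1 (ENSMUSG00000028339, chromosome 4, 47208161 to 47313167) stood at 8081, 9113, 6176, 7928 and 11798 in FAP-ctrl, against 7345, 9373 and 7482 in FAP-no cilia. Col18a1 (ENSMUSG00000001435, chromosome 10, 77052178 to 77166548) stood at 3195, 3458, 1799, 1916 and 4178 in FAP-ctrl, against 2254, 2452 and 2501 in FAP-no cilia. FAP-ctrl 3 was the lowest library for both, and the FAP-no cilia values lay inside the FAP-ctrl range. Col18a1 had the widest spread of the 10 genes, with a highest value 2.32 times the lowest and a coefficient of variation of 30.2% over the 8 libraries. The log2 difference was -0.07 ± 0.18 (SE, 95% interval -0.47 to 0.33; limma-trend adjusted p = 0.919) for Col15a1 and -0.20 ± 0.26 (SE, 95% interval -0.77 to 0.37; adjusted p = 0.812) for Col18a1. The FAP-no cilia ratios of Col15a1 to Col18a1 reads, 3.26, 3.82 and 2.99, lay inside the FAP-ctrl range of 2.53 to 4.14. The groups did not differ in it beyond their spread (log2 difference 0.13, exact two-sided permutation test p = 0.518, adjusted p = 0.661). Unlike the collagen IV pair, its log2 value had an SD of 0.25 over the 8 libraries.

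Among the laminin alpha chains, Lama4 reads outnumbered Lama2 reads in every library. Lama2 (ENSMUSG00000019899, chromosome 10, 26980036 to 27619758) encodes the chain of the muscle fibre basement membrane that is lost in merosin-deficient muscular dystrophy. It stood at 11908, 11718, 11336, 10814 and 7445 in FAP-ctrl, against 11834, 10176 and 8546 in FAP-no cilia. FAP-ctrl 5 lay below the other 7 libraries. Lama4 (ENSMUSG00000019846, chromosome 10, 38965515 to 39110188) encodes a shorter alpha chain of vessels, nerves and fat. It stood at 22190, 21926, 20981, 20680 and 20777 in FAP-ctrl, a coefficient of variation of 3.27%, and at 25657, 21792 and 24151 in FAP-no cilia. FAP-no cilia 1 and 3 were above every FAP-ctrl library for Lama4, while FAP-no cilia 2 lay inside the FAP-ctrl range.

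The log2 difference of Lama2 was -0.06 ± 0.17 (SE, 95% interval -0.42 to 0.31; limma-trend adjusted p = 0.936). That of Lama4 was 0.16 ± 0.09 (SE, 95% interval -0.05 to 0.37; limma-trend adjusted p = 0.572, DESeq2 adjusted p = 0.463). The ratio of Lama4 to Lama2 reads was 1.86, 1.87, 1.85, 1.91 and 2.79 in FAP-ctrl, against 2.17, 2.14 and 2.83 in FAP-no cilia. Apart from FAP-ctrl 5, each FAP-ctrl ratio was below each FAP-no cilia ratio, and with all libraries the log2 difference of 0.22 was within the spread (exact two-sided permutation test p = 0.25, adjusted p = 0.5). The log2 difference was 0.33 without FAP-ctrl 5 and 0.086 without FAP-no cilia 3, so it rests on these libraries. Per kilobase of exon the mean ratio was 2.95, and with transcript lengths 3.46.

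Lamb1 and Lamc1, which encode the beta 1 and gamma 1 chains that most laminin trimers share, were the steadiest of the set beside Nid1 and Lama4. Lamb1 (ENSMUSG00000002900, chromosome 12, 31265234 to 31329644) stood at 22715, 22359, 19504, 19400 and 20480 in FAP-ctrl, against 20604, 20331 and 19475 in FAP-no cilia. Lamc1 (ENSMUSG00000026478, chromosome 1, 153218922 to 153332786) stood at 25642, 27546, 22499, 21045 and 22951 in FAP-ctrl, against 26942, 26233 and 25100 in FAP-no cilia. The groups overlapped for both genes, with FAP-ctrl 1 and 2 at the top for Lamb1 and FAP-ctrl 4 at the bottom for both. The log2 difference was -0.05 ± 0.10 (SE, 95% interval -0.26 to 0.16; limma-trend adjusted p = 0.888) for Lamb1 and 0.13 ± 0.11 (SE, 95% interval -0.12 to 0.38; adjusted p = 0.712) for Lamc1.

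Within each library, Lamb1 reads were fewer relative to Lamc1 reads in FAP-no cilia. The ratio was 0.886, 0.812, 0.867, 0.922 and 0.892 in FAP-ctrl, against 0.765, 0.775 and 0.776 in FAP-no cilia. The groups did not overlap, with means of 0.876 ± 0.041 in FAP-ctrl (SD, n = 5) against 0.772 ± 0.0062 in FAP-no cilia (SD, n = 3). Its log2 change of -0.18 between groups had the smallest p that the exact two-sided permutation test can give here (p = 0.0179) and did not pass once adjusted over the 4 ratios (adjusted p = 0.0714), which a lone ratio at that smallest p cannot do. The male FAP-ctrl libraries, at 0.886 and 0.812, were also above all 3 FAP-no cilia libraries.

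**Figure D3:**
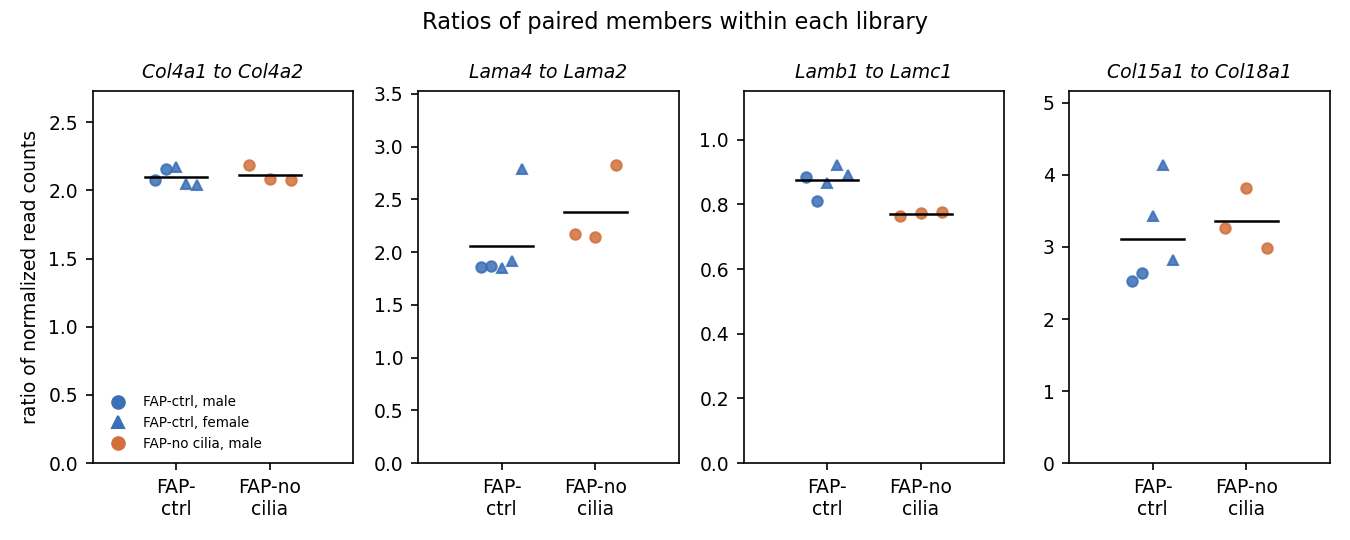
Ratio of normalized read counts within each library for the 4 gene pairs, one panel a pair, with colours for the groups, circles for male and triangles for female libraries and bars for the group means. The groups overlap for 3 pairs, and for Lamb1 to Lamc1 the 3 FAP-no cilia libraries (0.765 to 0.776) lie below the 5 FAP-ctrl libraries.

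The linkers of the sheet were Nid1, whose product bridges laminin and collagen IV, and Hspg2, which encodes the heparan sulphate proteoglycan perlecan. Nid1 (ENSMUSG00000005397, chromosome 13, 13437551 to 13512269) stood at 50586, 52952, 44815, 47367 and 43596 in FAP-ctrl, against 50401, 45585 and 44251 in FAP-no cilia. Hspg2 (ENSMUSG00000028763, chromosome 4, 137468769 to 137570630) stood at 16525, 19447, 11376, 11746 and 12693 in FAP-ctrl, against 14162, 16320 and 9844 in FAP-no cilia. FAP-ctrl 2 was the highest library for both, and the lowest was FAP-ctrl 5 for Nid1 and FAP-no cilia 3 for Hspg2. The groups overlapped for both genes. The log2 difference was -0.03 ± 0.12 (SE, 95% interval -0.30 to 0.24; limma-trend adjusted p = 0.949) for Nid1 and -0.09 ± 0.21 (SE, 95% interval -0.56 to 0.37; adjusted p = 0.908) for Hspg2.

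Across the 10 genes, FAP-no cilia and FAP-ctrl did not differ beyond the spread of the libraries in any test adjusted over all genes. Limma-trend called 0 members where it called 0.00677% of all genes tested, DESeq2 called 0 (1.17% of all genes) and edgeR called 0 (0.0% of all genes). Members with an unadjusted p under 0.05 numbered 0 in limma-trend (10.8% of all genes), 1 in DESeq2 (10.8%), which was Lama4, and 0 in edgeR (10%). The groups overlapped for all 10, where 7.31% of all genes had groups that did not overlap, 3.62% with FAP-no cilia above and 3.69% with it below. The log2 difference was above 0 for 4 genes and below 0 for 6, with a median of -0.041 against 0.0077 over all genes tested. The 95% intervals ranged from -0.05 to 0.37 for Lama4, among the narrowest, to -0.77 to 0.37 for Col18a1, the widest. In bulk libraries a lower level in each cell and a smaller share of expressing cells cannot be told apart. Endothelial cells and pericytes also make basement membrane. The summed level of 14 endothelial markers was 697 to 1112 in FAP-ctrl, against 832, 876 and 2019 in FAP-no cilia. That of 8 markers of pericytes and other mural cells was 2201 to 2781 in FAP-ctrl, against 2404, 2617 and 3271 in FAP-no cilia. That of 10 macrophage markers was 496 to 2133 in FAP-ctrl, against 1084, 3756 and 1408 in FAP-no cilia. For 10 muscle fibre markers, of which 5 had a mean under 10, the sum was 252 to 328 in FAP-ctrl. It was 155, 183 and 218 in FAP-no cilia, without overlap. The part of these cells in the result was not tested.

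The FAP-ctrl libraries also differed among themselves. In 8 of the 10 genes both male FAP-ctrl libraries were above all 3 female ones, against 9.77% of all genes tested, and 0 genes were the other way round (9.77%). The exceptions were Col15a1 and Col18a1, in which the female library FAP-ctrl 5 was highest. Means of the male and female FAP-ctrl libraries were 31084 and 18523 for Col4a1, 14652 and 8900 for Col4a2, and 17986 and 11938 for Hspg2. The log2 difference, male minus female, was 0.73 ± 0.20 for Col4a1, 0.71 ± 0.18 for Col4a2 and 0.59 ± 0.13 for Hspg2 (SE), each at a limma-trend adjusted p of 0.992. It was above 0 in 10 of 10 genes with a median of 0.27, where 51.1% of all genes were above 0, with a median of 0.0062. Limma-trend called 0 of the 10 (0.0203% of all genes), and 3 had an unadjusted p under 0.05 (4.29% of all genes). With scaling to the read total in place of the size factors, the count of genes with both male libraries on top was 6 (4.96% of all genes). Some of the 10 genes moved together, such as Col4a1 and Col4a2 (SD of the log2 ratio 0.0394), so these counts are not of independent genes.

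This comparison was added after the values were seen, and with 2 male and 3 female libraries sex cannot be told apart from anything else that FAP-ctrl 1 and 2 share. The summed level of 10 macrophage markers was 2133 and 1118 in the male and 1370, 496 and 655 in the female FAP-ctrl libraries. That of 9 satellite cell and myoblast markers, of which 6 had a mean under 10, was 941 and 1099 in the male and 531, 536 and 723 in the female FAP-ctrl libraries, without overlap. Of these 9 markers 4 were tested, and 1 of them had both male libraries above all 3 female ones. Their log2 difference, male minus female, was above 0 for 3 of the 4, with a median of 0.04. The part of either list in the result was not tested.

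**Figure D4:**
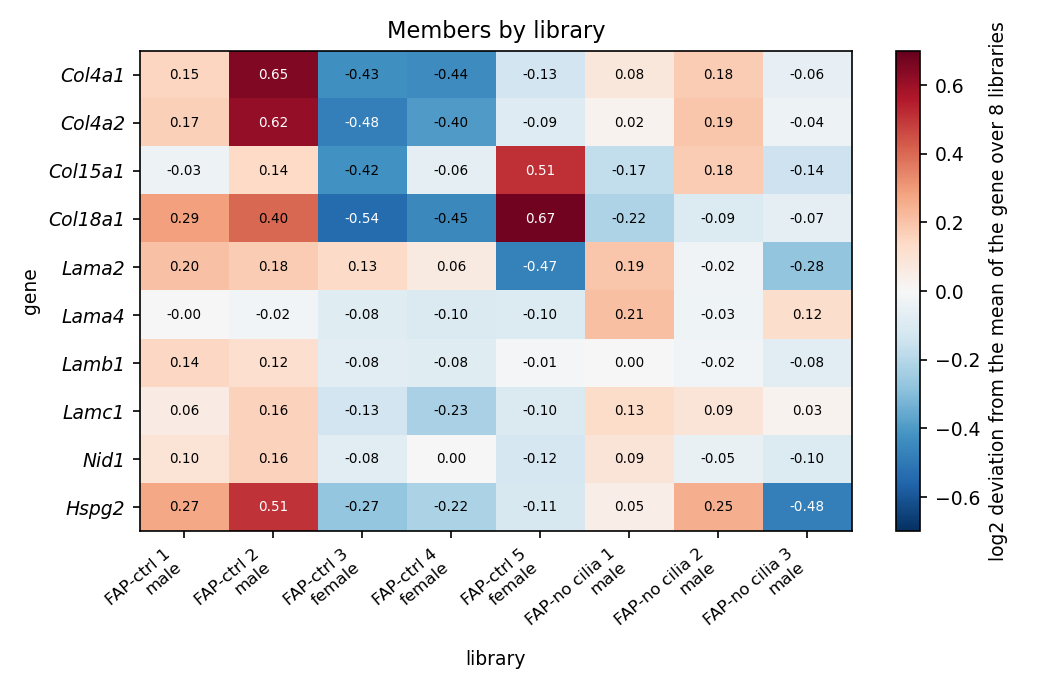
Log2 deviation of each gene (y axis) in each library (x axis) from its mean over the 8 libraries, as a colour scale. FAP-ctrl 2 is above the mean for Col4a1, Col4a2 and Hspg2, FAP-ctrl 3 and 4 are below it, and FAP-ctrl 5 stands out by low Lama2 and high Col15a1 and Col18a1.

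With the comparison limited to the male libraries, 3 FAP-no cilia against 2 FAP-ctrl, 9 of the 10 genes had a log2 difference below 0 (50.4% of all genes), with a median of -0.19. The difference was -0.33 for Col4a1 and for Col4a2, opposite in sign to that with all libraries, -0.45 for Hspg2 and 0.11 for Lama4. Col18a1 had -0.47 ± 0.10 (SE, 95% interval -0.70 to -0.24; unadjusted p = 0.00127 in limma-trend), which did not pass over all genes (adjusted p = 0.374). No FAP-no cilia library was female, so with all 8 libraries and sex as a covariate the estimate is again -0.47 by construction. Its unadjusted limma-trend p in that fit was 0.152. Limma-trend called 0 of the 10 in the male libraries (0.0135% of all genes), and 1 had an unadjusted p under 0.05 (7.4% of all genes). All 3 FAP-no cilia libraries were below both male FAP-ctrl libraries for 4 genes, Col18a1, Lamb1, Nid1 and Hspg2 (12.8% of all genes), and above them for 0 genes (13.4% of all genes). For Nid1 and Hspg2 this rests on near ties. Nid1 was 50401 in FAP-no cilia 1 against 50586 in FAP-ctrl 1, and Hspg2 16320 in FAP-no cilia 2 against 16525 in FAP-ctrl 1.

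**Figure D5:**
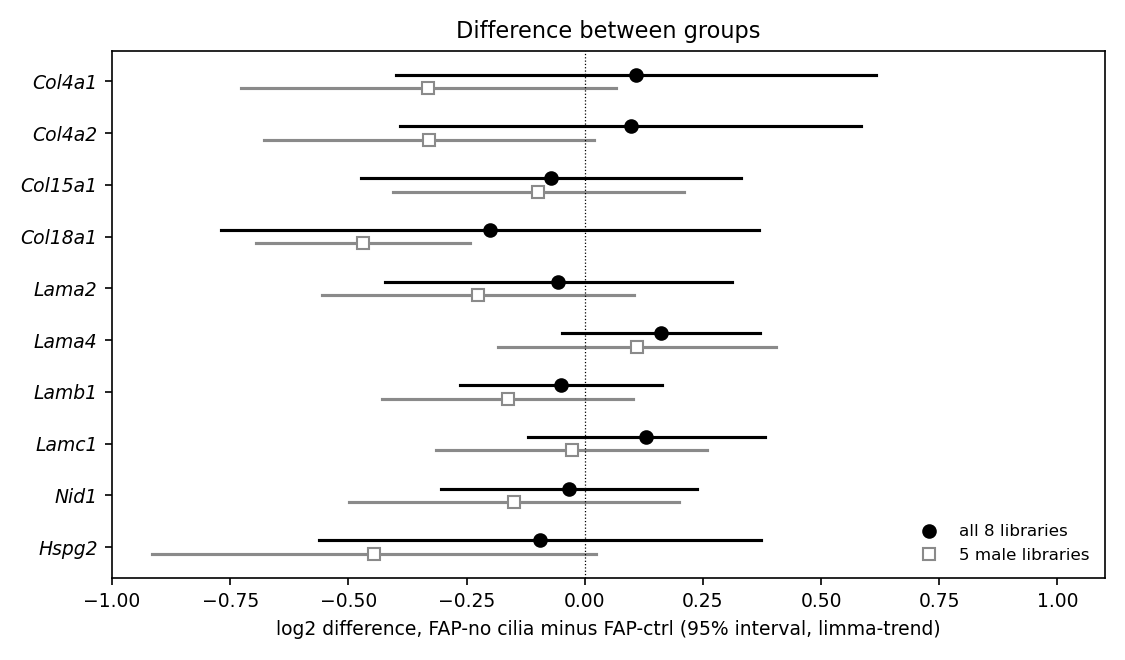
Log2 difference of FAP-no cilia minus FAP-ctrl for each gene with its 95% limma-trend interval, once with all 8 libraries and once with the 5 male libraries. With all libraries each interval includes 0, and with the male libraries 9 of 10 differences lie below 0 and the interval of Col18a1 (-0.70 to -0.24) does not include 0.

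The genes did not vary as a single block over the 8 libraries. Lamb1 and Nid1 kept a steady ratio, with an SD of the log2 ratio of 0.07. Lamb1 alone had a log2 SD of 0.088, and Nid1 was only rank 32 of 10222 genes in likeness to it. Lama2 and Col18a1 were the least alike, with an SD of 0.57. The coefficient of variation over the 8 libraries was 6.24% for Lamb1, 7.32% for Nid1, 7.92% for Lama4 and 9.39% for Lamc1. It was 15.9% for Lama2, 20.2% for Col15a1, 22.9% for Hspg2, 24.8% for Col4a2 and 25.8% for Col4a1.

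By the same measure of likeness over the 8 libraries, the genes nearest to Lama2 were Crybg3 (SD 0.072), Alms1 (0.072), Zbtb10 (0.085), Mlf1 (0.089) and Fbn1 (0.092), the last of which encodes the microfibril protein fibrillin 1. Those nearest to Col15a1 were Map4k2 (SD 0.081), the clock gene Per1 (0.084), Etfb (0.086), Prrx2 (0.090) and Mvk (0.091). None of the other 9 members was among the 5 genes nearest to Lama2 or Col15a1. These, and the genes nearest to Col4a1, have the smallest of 10222 SDs over only 8 libraries. Some have few reads, such as Map4k2 with a mean of 117. How small such an SD becomes by chance was not tested.

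Start windows from RefSeq were matched for 8 of the 10 genes. The Hspg2 window had 5 GC boxes and a GC content of 70.3%, and the Lama2 and Col15a1 windows had 50.3% and 52.3% GC with 1 and 0 GC boxes. Between them lay Lamb1 (63.7% GC, 2 GC boxes) and Nid1 (64.7% GC, 1 GC box). Col18a1 had a window with 63.3% GC and 3 GC boxes and another with 59.7% GC and 0. No window of the matched genes held TATAAA.

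Limma-trend, DESeq2 and edgeR called 0 of the listed partners of these genes, where they called 0.00677%, 1.17% and 0.0% of all genes. Of 24 other basement membrane components 20 were tested, 12 with a log2 difference above 0 and 8 below, with a median of 0.09. The remaining 4 had a mean under 10. Per kilobase the highest of them were Sparc, which encodes a collagen-binding matricellular protein, Fbln2, Nid2 and Smoc2. Sparc stood at 184361 ± 24186 (SD, n = 5) and 198326 ± 16080 (SD, n = 3) in FAP-ctrl and FAP-no cilia. Nid2, the second nidogen, stood at 8495 ± 908 and 8347 ± 805 (SD). At an unadjusted p under 0.05 this list had 0 genes in limma-trend (10.8% of all genes), in DESeq2 (10.8%) and in edgeR (10%).

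Of 14 genes that modify, fold, export or crosslink collagen IV and the sheet, 13 were tested, with 9 above 0, 4 below and a median of 0.05. Per kilobase the highest were P4hb, Serpinh1 (the collagen chaperone HSP47), Loxl2 and P4ha1. P4ha1, a subunit of prolyl 4-hydroxylase, had means of 10063 ± 1684 (SD, n = 5) and, without cilia, 12593 ± 1188 (SD, n = 3). Its log2 difference of 0.34 ± 0.14 (SE) did not pass (limma-trend adjusted p = 0.425). Pxdn, the peroxidase that forms the sulfilimine crosslinks of collagen IV, was named after its values were seen and stood at 10138 ± 1464 and 9191 ± 299 (SD). Mia3 was listed at 0 in every library, and these values cannot tell a silent gene from an identifier that took no counts. In this list 2 of 13 genes had an unadjusted p under 0.05 in limma-trend, 3 in DESeq2 and 2 in edgeR. Over all genes tested the shares were 10.8%, 10.8% and 10%.

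Of 15 receptors of laminin and collagen IV, all tested, 8 were above 0 and 7 below, with a median of 0.0083. Itgb1, the beta subunit of the main matrix integrins, was the highest per kilobase at 36321 ± 2496 (SD, n = 5) and 41135 ± 3585 (SD, n = 3) reads, followed by Sdc4, Ddr2 and Sdc2. Itga7, the laminin-binding alpha subunit of muscle cells, was chosen after its values were seen as the 1 receptor whose groups did not overlap. Of 15 receptors, 1 is close to the 7.31% of all genes tested whose groups did not overlap. Itga7 stood at 218, 211, 200, 186 and 247 in FAP-ctrl, against 105, 109 and 173 in FAP-no cilia. Its log2 difference was -0.75 ± 0.19 (SE; limma-trend adjusted p = 0.232). It is also a satellite cell marker. The summed level of 9 satellite cell and myoblast markers, Itga7 included, was 531 to 1099 in FAP-ctrl and 599 to 697 in FAP-no cilia. Of these 9 markers 6 had a mean under 10, and 4 were tested. Among those 4, Itga7 included, 3 had a log2 difference below 0 and 1 above, with a median of -0.88. The summed muscle fibre markers were lower in each FAP-no cilia library (155 to 218) than in any FAP-ctrl library (252 to 328). Of these 10 markers 5 had a mean under 10, and the part of either list in the Itga7 values was not tested. In this list 2 of 15 genes had an unadjusted p under 0.05 in each of limma-trend, DESeq2 and edgeR. Over all genes tested the shares were 10.8%, 10.8% and 10%.

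Dystroglycan binds laminin through a sugar chain, and 12 genes of its synthesis were tested, with 5 above 0, 7 below and a median of -0.01. The highest per kilobase were Rxylt1, B4gat1, B3galnt2 and Pomgnt1.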

How the data were processed

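RNA sequencing was performed on 8 FAP libraries. Per the series design text and the submitters' processing notes, reads from a stranded total RNA kit were aligned with STAR to GRCm38 and counts were normalized with DESeq; the sources used here do not give the counting tool or its strand setting. The deposited signal is the number of reads over the size factor of the library. Whole reads were recovered from the deposited values (100% whole within 0.01 reads), between 15.3 and 43.9 M per library. Identifiers were matched to GENCODE M21 for 32938 of 37991 genes.

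The 14768 genes that reached 10 in 3 or more libraries were compared on log2(value + 1) by limma-trend, with only genotype in the model, and Benjamini-Hochberg adjustment over all genes tested at a threshold of 0.05. The log2(value + 1) scale understates changes of low genes. On the recovered reads edgeR called 0 genes and DESeq2 173, and limma-trend called 1. Ratios within a library were tested by an exact two-sided permutation test. On simulated data of the same size limma-trend recovered 67% of 100 genes changed 2-fold and 95% of 100 changed 4-fold. Each simulated gene had the spread typical of its level and no difference by sex. The recovery in the real libraries is therefore not given by these shares. Replicates of a group differed by more than sampling noise in each of 13 pairs.

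The members, partner lists and tests were chosen with earlier results of these data known. Named genes were the 10 members, Ift88, the 4 genes of each partner list with the highest level per kilobase, any listed gene called, and the 5 genes nearest to Col4a1, Lama2 and Col15a1 by the SD of the log2 ratio; others were chosen after their values were seen. For 1 gene of the partner lists the values are not reported here. The alternatives were DESeq2, edgeR, limma-voom, other scalings, pseudocounts and filters, the replicate number as a block, sex as a covariate, the male libraries only, and each library left out in turn. Transcript-length levels and the comparison of male with female FAP-ctrl libraries were added after the data were seen. Lengths, overlaps and coordinates are of GRCm38, and start windows of RefSeq GRCm38.p6. Exons of Col4a2, Col15a1, Lama2 and Nid1 overlap antisense genes by 43, 14, 631 and 143 bases, so reads there may not be separable. Statistics were run in R 4.3.3 with DESeq2 1.42.0, edgeR 4.0.16 and limma 3.58.1. Tables and plots were made in Python 3.11.15 with scipy 1.17.1, pandas 2.3.3, matplotlib 3.10.9 and numpy 2.4.6.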

Additional observations from a re-analysis of the deposited data

Results flagged for a closer look

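Of 14 groups of 5 libraries examined for a library far from the others (the 10 genes and 4 ratios in FAP-ctrl), 2 had such a library, and chance marks about 1 in 20 groups. Lama2 in FAP-ctrl 5 was 7445, where the next lowest FAP-ctrl library was at 10814. The ratio of Lama4 to Lama2 in FAP-ctrl 5 was 2.79, where the next highest was 1.91. Both rest on the same Lama2 value.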

How the results depend on the processing

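No member passed in any of the 20 other settings (lowest adjusted p = 0.374, Col18a1 in the male libraries), and of 200 values of the 10 genes 184 kept their sign and 16 turned. Over all genes, the count called went from 1 to 173 with DESeq2, 0 with edgeR, 0 with limma-voom and 2 in the male libraries. It ran from 1 to 3 with a library left out, with 3 without FAP-no cilia 3 and 2 without FAP-no cilia 2 or FAP-ctrl 3. In the male libraries, and with sex as a covariate, the log2 difference was -0.33 for Col4a1, -0.33 for Col4a2 and -0.027 for Lamc1. These settings give the same estimates by construction, as no FAP-no cilia library was female. Both are counted among the 200 values. With the replicate number of libraries 1 to 3 as a block 0 genes were called, and the log2 difference was -0.055 for Col4a1, -0.041 for Col4a2, 0.060 for Col15a1 and -0.014 for the ratio of Col4a1 to Col4a2. Deviations of libraries with the same number correlated at -0.070, 0.135 and 0.036, so the numbers were not taken to pair them. With a library left out in turn, the log2 difference ran from 0.0087 (without FAP-ctrl 4) to 0.28 (without FAP-ctrl 2) for Col4a1, from -0.35 (without FAP-ctrl 3) to -0.050 (without FAP-ctrl 5) for Col18a1, from -0.013 (without FAP-ctrl 3) to 0.26 for Col4a2, from -0.19 to 0.049 (without FAP-ctrl 5) for Col15a1 and from -0.18 to 0.064 (without FAP-no cilia 3) for Lama2. It ran from -0.088 to 0.0059 (without FAP-no cilia 3, and 0.0049 without FAP-ctrl 2) for Nid1 and from -0.25 to 0.12 (without FAP-no cilia 3, and 0.024 without FAP-ctrl 2) for Hspg2. The ratio of Col4a1 to Col4a2 ran from -0.013 (without FAP-no cilia 1) to 0.024, that of Lamb1 to Lamc1 from -0.21 to -0.16, that of Lama4 to Lama2 from 0.086 to 0.33 and that of Col15a1 to Col18a1 from 0.030 (without FAP-no cilia 2) to 0.24 (without FAP-ctrl 4). The count of members with both male FAP-ctrl libraries on top ran from 8 (15.1% to 24% of all genes) to 10 (24% of all genes, without FAP-ctrl 5). The cause of these shifts was not tested. The lowest normalized read count of the 10 genes was 1799 (Col18a1).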
